A study of Mus musculus with 8 samples.

Results

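The first day of the exit from pluripotency was described by comparing day 1 with day 0 of embryoid body (EB) differentiation in KH2-DGCR8 cells, using small RNA sequencing. EBs are aggregates in which mouse embryonic stem cells stop self-renewing and start to differentiate. The comparison took 4 of the study's 8 libraries, chosen by the day and treatment in the sample labels: day 0 without doxycycline (Dox), day 1 without Dox, day 0 with Dox and day 1 with Dox. All 1099 miRNAs listed entered it. KH2 cells are mouse embryonic stem cells engineered to carry a transgene under a Dox-inducible promoter. From the name KH2-DGCR8, that transgene is taken here to be DGCR8. All 4 libraries carried the KH2-DGCR8 genotype, so the libraries without Dox came from the same engineered line and not from unmodified cells. The sources used here do not give the dose and duration of Dox, or whether the line is 1 clone. Each condition had 1 library. A day 1 change was therefore measured once without Dox and once with Dox. How far the treatments differed in their changes over the days stood in for replicate error. Pairs of values below are given as day 0 then day 1.

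A miRNA is cut from a hairpin, first by the Microprocessor (DROSHA with DGCR8) and then by Dicer. One arm of the hairpin usually enters Argonaute and finds messenger RNAs through its seed, bases 2 to 8, while the other arm is mostly degraded. In mouse embryonic stem cells the miR-290 cluster is the dominant miRNA locus and is known to promote the rapid stem cell cycle, whereas LIN28 keeps let-7 from maturing until cells differentiate. The related miR-302 cluster is known for the later epiblast state.

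The sequences below are those on which the day 1 comparison turns. They are mature mouse miRNAs from RefSeq (GRCm38), 5′ to 3′, with the seed in capitals. Of the 839 miRNAs tested, 694 matched a RefSeq sequence, as did 56 of the 69 that changed. The let-7 members that rose share 1 seed:
let-7a-5p: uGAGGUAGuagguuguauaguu
let-7e-5p: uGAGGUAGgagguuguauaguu
let-7f-5p: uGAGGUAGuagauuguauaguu
let-7g-5p: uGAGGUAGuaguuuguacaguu
These 3 abundant 3p arms of the miR-290 cluster share their seed with miR-302d-3p, although the clusters lie on different chromosomes:
miR-291a-3p: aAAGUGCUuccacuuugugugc
miR-294-3p: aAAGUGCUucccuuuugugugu
miR-295-3p: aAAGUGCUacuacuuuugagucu
miR-302d-3p: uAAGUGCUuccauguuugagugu
The remaining sequences are miRNAs described one by one: the most firmly called fall, a pair of neighbours in an imprinted region whose seeds differ, an epithelial miRNA, both arms of miR-182, and a miRNA that was almost absent at day 0:
miR-708-5p: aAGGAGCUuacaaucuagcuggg
miR-379-5p: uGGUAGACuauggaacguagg
miR-411-5p: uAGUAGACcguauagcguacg
miR-429-3p: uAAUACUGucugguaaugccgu
miR-182-5p: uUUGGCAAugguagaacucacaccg
miR-182-3p: gUGGUUCUagacuugccaacu
miR-760-3p: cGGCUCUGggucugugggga

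The 4 libraries held between 365870 and 517781 reads assigned to miRNAs, as implied by the steps of the deposited values. The values are read here as RPM, reads assigned to miRNAs scaled to a common total in each library. Of the 1099 miRNAs, 630 and 644 were above 0 in the day 0 libraries without and with Dox, against 697 and 751 at day 1. The day 1 libraries were also the deeper of each pair (449794 reads against 412554 without Dox, and 517781 against 365870 with Dox), and the part of depth in these counts was not tested. A count of 3 reads was worth between 5.79 and 8.20 RPM, so values near that level rest on very few reads. The stem cell label was checked against 6 miR-290 cluster miRNAs. They summed to 353821 and 321010 RPM at day 0, and still to 289682 and 285647 RPM at day 1, without and with Dox in each case.

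Between day 0 and day 1, 4 let-7 miRNAs, miR-429-3p and miR-182-3p rose. miR-295-3p and miR-291a-3p of the miR-290 cluster, miR-708-5p, 4 miR-378 miRNAs and miR-379-5p and miR-411-5p of the imprinted Dlk1-Dio3 region fell. In all, 69 of 839 miRNAs tested (8.22%) passed limma's moderated test at a Benjamini-Hochberg adjusted p under 0.05, 35 of them higher (4.17%) and 34 lower (4.05%) at day 1. Each of the 69 moved the same way without and with Dox, and for 57 of them (24 higher, 33 lower) the 95% counting interval of the day 1 to day 0 ratio excluded 1 in both treatments. Such intervals hold counting error alone and leave out variation between cultures and libraries. Reads copied by PCR are not separate molecules, so even the counting error may be understated. Higher calls ran from 0.80 to 4.51 on the log2 scale with a median of 1.84, and lower calls from -3.31 to -0.68 with a median of -1.15. The lowest, miR-152-5p, had 10 then 0 reads without Dox and 4 then 2 with Dox, so its size depends on the pseudocount. miRNAs that fell were mostly abundant, with a median level of 1436 RPM over the 4 libraries. Those that rose had a median of 58.5 RPM.

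The size and direction of small changes depended on how the libraries were scaled. Median-of-ratios scaling, which sets the typical miRNA to no change, lowered day 1 ratios by 0.37 without Dox and 0.38 with Dox (log2) relative to the deposited values. Because a pseudocount was added, the changes of low miRNAs shifted by less. The median change of all miRNAs tested was 0.02 after scaling and 0.37 before it. On the deposited scale the same test called 68 miRNAs (8.10%), 59 higher (7.03%) and 9 lower (1.07%), so that 86.8% of calls were higher, against 50.7% after scaling. All 35 higher calls passed on both scales, but 25 of the 34 lower calls passed only after scaling. The 9 that fell on both scales were miR-708-5p, miR-411-5p, miR-379-5p, miR-376b-3p, miR-362-3p, miR-378a-3p, miR-378c, miR-378d and miR-152-5p. These data give no total miRNA amount per cell, so a fall after scaling is a fall relative to the typical miRNA. Of the 23 lists of miRNAs described below, 11 had a median below 0 after scaling, and 9 of these had one above 0 on the deposited scale. The miR-181 list and the blood and endothelium list remained below 0.

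The calls also rested on the pooled spread. The test borrowed its error from all miRNAs and from the libraries of days 2 and 4. With only the 4 libraries of days 0 and 1 in the fit limma called 0 miRNAs (163 at an unadjusted p under 0.05). It called 17 when the robust option was off, and leaving out the day 1 library without Dox or with Dox left 0 and 3 calls. Leaving out either day 0 library also lost most of the calls made with all 8 libraries. miR-760-3p and miR-708-5p were kept in the most alternatives, 15 of 17 each. No miRNA called changed sign under any of the 17.

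**Figure D1:**
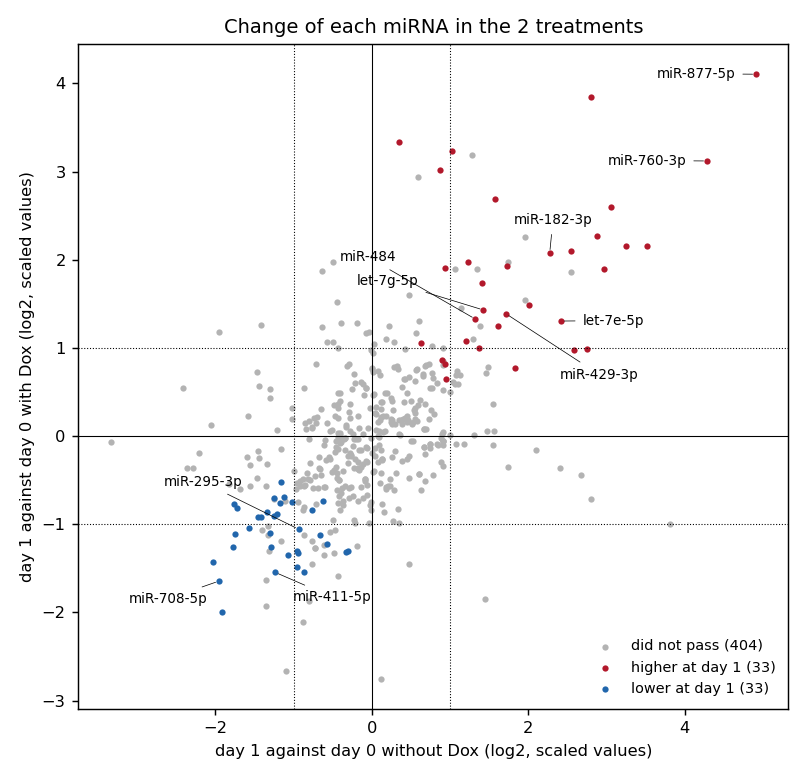
Log2 change from day 0 to day 1 after median-of-ratios scaling, without Dox (x axis) and with Dox (y axis), for the 470 miRNAs whose mean over the 4 libraries was 10 RPM or more. Each point is 1 miRNA; red and blue points passed limma's test over both treatments (33 higher, 33 lower), and dotted lines mark 2-fold. The called miRNAs all lie in the lower left or upper right, while many grey points lie off the diagonal; the position of miR-877-5p, which had no read at day 0, depends on the pseudocount.

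Without a test, agreement between the treatments was only partial. Of the 470 miRNAs averaging 10 RPM or more, 333 (70.9%) moved the same way in both treatments after scaling. The changes without and with Dox had a Pearson r of 0.57 and a Spearman rho of 0.54 across these miRNAs, which share 4 libraries and are not independent replicates. A change of at least 2-fold was seen in 118 miRNAs without Dox and in 102 with Dox. It was seen the same way in both for 50 (10.6%), of which 32 were higher (6.81%) and 18 lower (3.83%), and in opposite directions for 4. For 29 of the 50 both counting intervals excluded 1. On the deposited scale the 2-fold rule gave 58 higher and 5 lower. No miRNA differed between the treatments in its day 1 change by limma's test of that difference (0 of 839, with 17 at an unadjusted p under 0.05). That test had 1 residual degree of freedom and does not show that the changes were equal.

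let-7 miRNAs are known to repress stem cell and growth genes such as Lin28a and Hmga2. Of 16 let-7 family miRNAs tested, 4 were higher and 0 lower at day 1, against 4.17% and 4.05% of all miRNAs tested. The family median was 0.85 against 0.02 for all miRNAs tested. Among the 8 that averaged 10 RPM or more, 7 had higher scaled values at day 1 in both treatments, and of all 16 this held for 9, while 3 had lower values in both. The family took 0.186% of reads at day 0 and 0.484% at day 1 without Dox, and 0.192% and 0.445% with Dox, so it remained a small part of the libraries.

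let-7g-5p, cut from an intron of Wdr82 (mm10, chr9:106178840-106178927, plus strand), stood at 196 RPM at day 0 and 685 at day 1 without Dox, and at 183 and 643 with Dox. Both day 1 libraries were far above both day 0 libraries, and the treatments differed little. After scaling its ratio was 2.69 (95% counting interval 2.10 to 3.48) without Dox and 2.70 (2.07 to 3.57) with Dox, and it rose by 1.43 (SE 0.35, limma adjusted p = 0.0018). let-7e-5p, from an intron of Spaca6 (chr17:17830352-17830444, plus strand), stood at 46 then 322 RPM without Dox, 82 then 265 with Dox. Its rise of 1.86 (SE 0.40, limma adjusted p = 2.88e-04) was the largest of the 4 called. The ratio was 5.40 (3.34 to 9.23) without Dox and 2.48 (1.66 to 3.82) with Dox. let-7f-5p had 145 then 489 RPM without Dox, 169 then 440 with Dox, and rose by 1.19 (SE 0.36, limma adjusted p = 0.0168). let-7a-5p, the most abundant member, had 548 then 1358 RPM without Dox, 547 then 1251 with Dox, and passed narrowly with a rise of 0.87 (SE 0.30, limma adjusted p = 0.046). For both, day 0 and day 1 libraries did not overlap. let-7c-5p had 448 then 994 RPM without Dox, 435 then 933 with Dox, a similar pattern that did not pass after scaling (0.75, SE 0.31, limma adjusted p = 0.144) and passed on the deposited scale (1.12, adjusted p = 0.00597). let-7 members differ by few bases, so reads could be split between them.

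The miR-290 cluster, on chromosome 7, was uneven. Of 14 members tested, 2 were lower and 1 higher, against 4.05% and 4.17% of all miRNAs tested. The cluster median was -0.35, and 11 members were lower in both treatments. On the deposited scale 0 were lower and 1 higher, against 1.07% and 7.03% of all miRNAs tested, with a median of 0.03. miR-290a-5p, for example, had 3675 then 3866 RPM without Dox, 3154 then 3498 with Dox. The cluster took 46.1% of reads at day 0 and 41.5% at day 1 without Dox, and 40.5% and 39.4% with Dox. miR-295-3p (hairpin chr7:3220773-3220841, plus strand) stood at 59406 RPM at day 0 and 40330 at day 1 without Dox, and at 58570 and 36614 with Dox. It fell in both treatments with no overlap between days, by 0.99 (SE 0.22, limma adjusted p = 5.71e-04). miR-291a-3p, with 48568 then 30939 RPM without Dox, 37773 then 29277 with Dox, fell by 0.89 (SE 0.23, limma adjusted p = 0.00353). Neither passed on the deposited scale, where the adjusted p was 0.052 for miR-295-3p and 0.149 for miR-291a-3p.

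Other abundant members of the cluster did not pass. miR-293-3p stood at 116591 then 106500 RPM without Dox, 109875 then 107760 with Dox (-0.46, SE 0.21, limma adjusted p = 0.210). miR-294-3p shares its seed with miR-295-3p and had 62746 then 54240 RPM without Dox, 54954 then 59164 with Dox (-0.43, SE 0.22, limma adjusted p = 0.260). The deposited values of miR-294-3p overlapped between days. miR-292a-3p had a change of -0.59 (SE 0.22, limma adjusted p = 0.0892). miR-292a-5p, from the other arm of that hairpin, had 63604 then 73378 RPM without Dox, 46735 then 64774 with Dox, with a change of -0.04 after scaling and 0.34 on the deposited scale (limma adjusted p = 0.982 and 0.381).

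The member that rose, miR-290a-3p (hairpin chr7:3218626-3218708, plus strand), is a minor arm with the seed AAGUGCC, and went from 44 to 153 RPM without Dox and from 22 to 98 with Dox. Its rise was 1.57 (SE 0.50, limma adjusted p = 0.027), on 18 and 69 reads without Dox and 8 and 51 with Dox.

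Seed sums hold only the tested miRNAs that matched a RefSeq sequence, so they may be incomplete. Summed by seed, AAGUGCU miRNAs (5 with a sequence, miR-294-3p, miR-295-3p, miR-291a-3p, miR-302d-3p and miR-302b-3p) took 17.1% of reads at day 0 and 12.6% at day 1 without Dox, and 15.2% and 12.6% with Dox. This sum was lower at day 1 in both treatments. The CUCAAAC seed of miR-292a-5p, miR-293-5p and miR-290a-5p went the other way in share of reads, from 10.05% to 11.8% without Dox and from 7.83% to 10.2% with Dox. After scaling the log2 difference of the CUCAAAC sum was -0.14 without Dox and 0.01 with Dox.

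The miR-302 cluster, known from epiblast cells, was low on both days. Its 4 marker miRNAs summed to 335 and 290 RPM at day 0 and to 702 and 607 RPM at day 1, without and with Dox in each case. miR-302d-3p (hairpin chr3:127545624-127545689, plus strand) had 126 then 400 RPM without Dox, 104 then 292 with Dox. Its scaled ratio was 2.45 (95% counting interval 1.79 to 3.40) without Dox and 2.16 (1.5 to 3.17) with Dox. The fitted change was 1.20 (SE 1.17, limma adjusted p = 0.715). The treatments differed widely at day 4 (11363 RPM without Dox, 800 with Dox), a spread that enters its error. Without the day 4 pair the same change passed limma's test (adjusted p = 0.00105). In all, 0 of 9 cluster members passed, against 4.17% higher and 4.05% lower of all miRNAs tested. The cluster median was 0.37, but the treatments differed in sign, with medians of -0.491 without Dox and 1.105 with Dox. Only 5 of the 9 members moved the same way in both treatments, 4 higher and 1 lower.

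**Figure D2:**
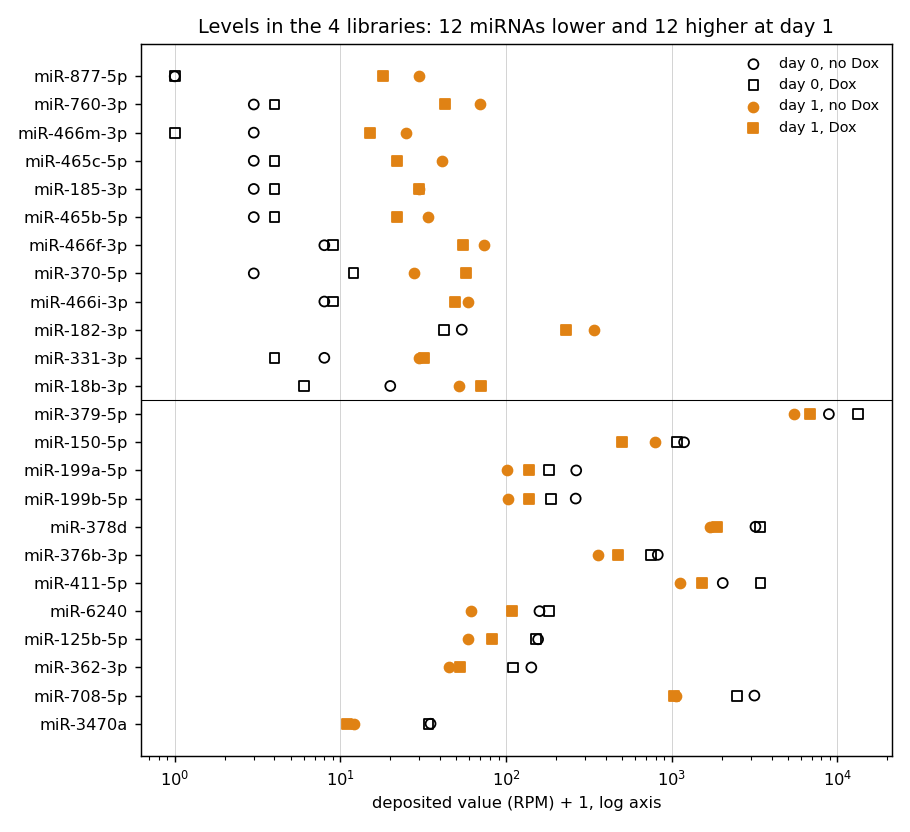
Deposited RPM + 1 on a log axis in each of the 4 libraries for the 12 miRNAs with the largest rise and the 12 with the largest fall that passed limma's test, had a mean of at least 10 RPM and moved the same way in both treatments. Open symbols are day 0, filled symbols day 1, circles without Dox and squares with Dox. Being chosen for the test and for moving the same way, all 24 separate by day; most risers lie under 10 RPM at day 0, whereas most of those that fell lie above 100 RPM.

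miR-708-5p had the lowest adjusted p of the comparison. It is cut from an intron of Tenm4, a teneurin gene (mature miRNA at chr7:96249450-96249472, plus strand). It stood at 3151 RPM at day 0 and 1054 at day 1 without Dox, and at 2468 and 1026 with Dox, so that the 2 day 1 libraries were nearly equal and far below day 0. The ratio after scaling was 0.258 (95% counting interval 0.232 to 0.287) without Dox and 0.320 (0.287 to 0.356) with Dox. It fell by 1.80 (SE 0.28, limma adjusted p = 1.43e-07), and by 1.42 on the deposited scale (adjusted p = 3.17e-05). At day 2 it stood at 2638 and 1787 RPM, a rise of 0.96 from day 1 (SE 0.28, limma adjusted p = 0.0257). That rise was smaller than the fall of 1.80, and both values were still below those of day 0.

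4 miR-378 miRNAs also fell. miR-378a-3p, known for roles in energy metabolism, had 11106 then 5396 RPM without Dox, 10004 then 6885 with Dox. It fell by 1.17 (SE 0.25, limma adjusted p = 2.74e-04). miR-378c fell by 1.18, but its values were within 11.01% of those of miR-378a-3p in every library, and these cannot be separated. miR-378d (hairpin chr10:126710282-126710391, minus strand), with 3197 then 1694 RPM without Dox, 3417 then 1864 with Dox, fell by 1.27 (SE 0.27, limma adjusted p = 2.94e-04). miR-378b fell by 1.04 after scaling and did not pass on the deposited scale (limma adjusted p = 0.188). miR-378a-5p, the other arm of miR-378a, did not pass on either scale, with 16 and 11 reads at day 0 and 7 and 17 at day 1, without and with Dox. miR-362-3p, from an intron of the chloride transporter gene Clcn5 (chrX:7241982-7242046, minus strand), fell from 141 to 44 RPM without Dox and from 109 to 52 with Dox. Lower in both treatments too were miR-6240, with 158 then 60 RPM without Dox, 180 then 108 with Dox, and miR-3470a, with 14 then 5 reads without Dox, 12 then 5 with Dox. Neither of these passed on the deposited scale (limma adjusted p = 0.0805 and 0.140).

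The Dlk1-Dio3 region on chromosome 12 is an imprinted locus whose miRNAs are expressed from the maternal chromosome. Of 100 of its miRNAs tested, 4 were higher and 6 lower, shares near the 4.17% and 4.05% of all miRNAs tested, so the counts do not set the region apart. Its median was -0.09. On the deposited scale 8 were higher and 3 lower, against 7.03% and 1.07% of all miRNAs tested, with a median of 0.20. The 6 that fell were miR-379-5p, miR-411-5p, miR-376b-3p, miR-299a-3p, miR-381-3p and miR-369-3p. miR-379-5p (hairpin chr12:109709060-109709125, plus strand) stood at 8872 then 5458 RPM without Dox, 13346 then 6823 with Dox, and fell by 1.21 (SE 0.24, limma adjusted p = 9.42e-05). miR-411-5p (hairpin chr12:109710175-109710256, plus strand) had 2029 then 1116 RPM without Dox, 3430 then 1528 with Dox, and fell by 1.39 (SE 0.28, limma adjusted p = 8.15e-05). Both were lower at day 1 in each treatment, and both had higher day 0 values with Dox than without it. miR-376b-3p (hairpin chr12:109723458-109723539, plus strand), with 822 then 358 RPM without Dox, 749 then 471 with Dox, fell by 1.31 (SE 0.31, limma adjusted p = 0.00126). These 3 passed on both scales.

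The 4 that rose in the region were both arms of miR-370, miR-410-5p and miR-667-3p. miR-370-3p (hairpin chr12:109618258-109618336, plus strand, within the non-coding RNA gene Rian) was the only one of the 4 at a high level. It had 1105 then 2768 RPM without Dox, 1798 then 3662 with Dox, and rose by 0.80 (SE 0.26, limma adjusted p = 0.0347). Its minor arm, miR-370-5p, had 1 and 12 reads without Dox and 4 and 29 with Dox, with ratios of 8.49 (95% counting interval 1.26 to 363) and 3.94 (1.38 to 15.4). miR-410-5p rose from 24 to 40 RPM without Dox (2 to 39 reads with Dox), and its interval included 1 without Dox (0.557 to 3.09).

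**Figure D3:**
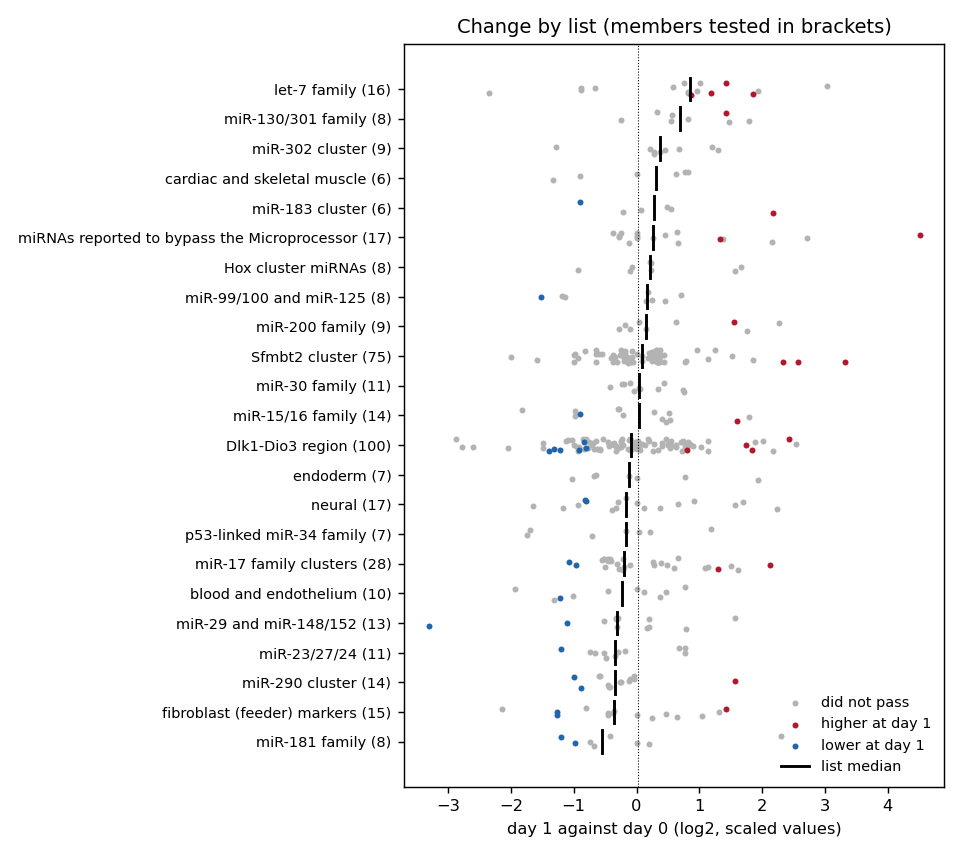
Day 1 change (log2, median-of-ratios scaling) of every tested member of 23 lists of miRNAs, with the number tested in brackets. Each point is 1 miRNA, coloured by limma's call; black bars are list medians and the dotted line is the median of all miRNAs (0.02). The let-7 list has the highest median (0.85) and the miR-181 list the lowest (-0.55), 9 of the 11 medians below 0 lie above 0 on the deposited scale, and most lists hold few or no called members.

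miR-429-3p was the member of the epithelial miR-200 family that rose. The family is known to restrain ZEB1 and ZEB2 and to hold the epithelial state. miR-429-3p (hairpin chr4:156053905-156053987, minus strand, in an intron of Ttll10) had 461 then 1961 RPM without Dox, 391 then 1333 with Dox, which left day 0 and day 1 far apart. It rose by 1.55 (SE 0.30, limma adjusted p = 5.21e-05), with ratios of 3.28 (95% counting interval 2.81 to 3.86) and 2.62 (2.19 to 3.16). miR-200a-3p and miR-200b-3p, whose hairpins lie beside it on the same strand, did not pass. miR-200b-3p had 4307 then 5298 RPM without Dox, 4267 then 4554 with Dox. miR-200a-3p had 3146 then 3608 without Dox, 3034 then 3038 with Dox. The family count was 1 higher and 0 lower of 9 (4.17% and 4.05% over all miRNAs tested), with a median of 0.15.

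In miR-182, of the miR-183 cluster known from sensory and stem cells, the minor arm passed and the major arm did not. miR-182-3p, the minor arm (hairpin chr6:30165918-30165992, minus strand), had 53 then 336 RPM without Dox, 41 then 228 with Dox. It rose by 2.17 (SE 0.43, limma adjusted p = 7.49e-05), with ratios of 4.86 (95% counting interval 3.09 to 7.98) and 4.28 (2.49 to 7.88). The major arm, miR-182-5p, had 41677 then 41143 RPM without Dox, 35504 then 45170 with Dox, so its days overlapped. Of the other members of the cluster, miR-96-5p fell by 0.90 (SE 0.26, limma adjusted p = 0.0139) and miR-183-5p had a change of 0.08 (limma adjusted p = 0.899).

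The arms of miR-16 went opposite ways. miR-16-1-3p, the minor arm of the hairpin in Dleu2 (chr14:61631880-61631972, minus strand), had 107 then 327 RPM without Dox, 63 then 326 with Dox, and rose by 1.61 (SE 0.38, limma adjusted p = 0.00117). miR-16-5p, the major arm and a brake on G1 cyclins, had 2036 then 1779 RPM without Dox, 2905 then 1613 with Dox, and fell by 0.90 (SE 0.28, limma adjusted p = 0.0208). miR-16-5p is also cut from a second hairpin, in Smc4. On the deposited scale miR-16-5p did not pass (adjusted p = 0.260).

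Across the 135 hairpins whose arms each averaged 10 RPM or more, the arms had changes of the same sign in 79. The less abundant arm had the higher change in 85, with a median difference of 0.25 (0.14 without Dox and 0.37 with Dox). Among these hairpins, 13 of the arms called higher were the minor arm and 4 the major arm, and 3 of those called lower were the minor arm and 13 the major arm. The change also varied with level over all miRNAs: its median was 0.24 for the 217 miRNAs with a mean of 10 to 100 RPM, -0.07 for the 163 from 100 to 1000 RPM and -0.25 for the 90 above 1000 RPM. The part of level in the arm pattern was not tested.

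Several of the steepest risers were close to absent at day 0. miR-760-3p (hairpin chr3:122293585-122293703, minus strand) had 1 read in each day 0 library, and 31 reads at day 1 without Dox and 22 with Dox. Its ratios were 21.9 (95% counting interval 3.66 to 894) and 11.96 (1.93 to 493), so the size of the rise is poorly bounded, while both intervals excluded 1. Its limma adjusted p was 3.43e-05. miR-877-5p, from an intron of Abcf1 (chr17:35960730-35960814, minus strand), is a mirtron, a hairpin released by splicing and not by the Microprocessor. It had no read at day 0 in either treatment and 13 and 9 reads at day 1. With 3 reads put in place of 0 at day 0, it was 3.07-fold higher without Dox and 1.63-fold higher with Dox after scaling (limma adjusted p = 1.69e-04). These ratios take the day 1 counts as exact, so they are not lower bounds of the rise. miR-185-3p had 1 read in each day 0 library and 13 and 15 at day 1, with ratios of 9.20 (1.38 to 391) and 8.15 (1.25 to 343). In all, 12 of the 35 higher calls had at most 3 reads in both day 0 libraries.

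miR-484, which is transcribed with its own 5′ cap and reported to mature without the Microprocessor, was better covered. It had 112 then 365 RPM without Dox, 112 then 367 with Dox (hairpin chr16:14159626-14159692, plus strand). The treatments were nearly equal on both days, and it rose by 1.33 (SE 0.38, limma adjusted p = 0.00952). With miR-877-5p it made 2 higher and 0 lower of the 17 tested miRNAs reported to bypass the Microprocessor. Over all miRNAs tested 4.17% were higher and 4.05% lower, and the median of this list was 0.26. The list for the Sfmbt2 cluster, a rodent-specific array of repeated hairpins, gave 3 higher and 0 lower of 75. That is about the 4.17% called higher over all miRNAs. The 3 were miR-466f-3p, miR-466i-3p and miR-466m-3p. List members were matched by name, and miR-466i-3p is annotated on chromosome 13, opposite an intron of Cdk13, and so not within Sfmbt2. miR-466f-3p had 3 reads at day 0 in each treatment and 33 and 28 reads at day 1, and cannot be told apart from miR-466i-3p, whose values were within 20.5% of it. On the other arms, miR-466f-5p had a change of -0.19 (limma adjusted p = 0.901) and miR-466m-5p one of -0.55 (limma adjusted p = 0.660). Likewise miR-331-3p rose by 2.13 and miR-331-5p had a change of -0.37 (limma adjusted p = 0.776), at 13 to 35 RPM.

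The list counts in this paragraph stand beside 4.17% higher and 4.05% lower over all miRNAs tested. Of the miR-17 family clusters, known for promoting the cell cycle, 2 of 28 rose and 2 fell, with a median of -0.20. Those that fell were the paralogs miR-19a-3p and miR-19b-3p. miR-19a-3p had 3646 then 1992 RPM without Dox, 3187 then 2213 with Dox (-1.08, SE 0.27, limma adjusted p = 0.00343), and miR-19b-3p changed by -0.97. The risers were low: miR-363-5p, at 27 then 127 RPM without Dox, 63 then 141 with Dox, and miR-18b-3p. In the miR-181 family 2 of 8 fell and 0 rose, both arms of miR-181c. miR-181c-5p had 1336 then 725 RPM without Dox, 877 then 701 with Dox. In the list of miR-29, miR-148 and miR-152 families 2 of 13 fell, both arms of miR-152, and miR-152-3p had 451 then 231 RPM without Dox, 306 then 218 with Dox. miR-125b-5p, the 1 of 8 miR-99/100 and miR-125 members that fell, had 155 then 58 RPM without Dox, 150 then 81 with Dox. miR-24-2-5p was the 1 of 11 in the miR-23/27/24 list that fell, and miR-301a-5p the 1 of 8 in the miR-130 and miR-301 family that rose. Neither the 11 miR-30 family miRNAs nor the 8 Hox cluster or 7 miR-34 family miRNAs held a call. None of the lower calls named in this paragraph other than miR-152-5p passed on the deposited scale.

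miR-184-3p, among the most abundant miRNAs of all libraries, had 60659 then 51077 RPM without Dox, 63345 then 49336 with Dox. It fell by 0.68 after scaling (SE 0.22, limma adjusted p = 0.027), while its change of -0.30 on the deposited scale did not pass (adjusted p = 0.422). The neural list held 0 higher and 2 lower of 17, against 4.17% and 4.05% of all miRNAs tested. The 2 lower were the near-identical miR-7a-5p and miR-7b-5p. miR-7a-5p had 16938 then 17450 RPM without Dox, 26526 then 13882 with Dox, so its deposited values moved in opposite directions in the treatments, and most of its change of -0.82 (limma adjusted p = 0.0143) came with Dox. The other large gains in mean scaled value did not pass limma's test after scaling. miR-21a-5p, a growth-associated miRNA, had 8428 then 20472 RPM without Dox, 14675 then 19676 with Dox. Its ratio was 1.87 (95% counting interval 1.80 to 1.95) without Dox and 1.03 (0.998 to 1.07) with Dox, and its change was 0.48 (limma adjusted p = 0.224). miR-101b-3p and miR-103-3p had changes of 0.45 and 0.28 (limma adjusted p = 0.349 and 0.620). miR-5099 was the 1 of the 5 largest gains in mean scaled value that passed. It had 2337 then 4689 RPM without Dox, 1487 then 4013 with Dox (0.84, SE 0.28, limma adjusted p = 0.0315).

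Markers of other cell types were measured beside these changes. In bulk libraries fewer cells of a type and less RNA per cell cannot be told apart. The 5 fibroblast feeder markers measured summed to 4916 then 5837 RPM without Dox, 4556 then 6377 with Dox, and moved both ways: miR-145a-5p rose by 1.42 from 85 to 211 RPM without Dox and from 30 to 149 with Dox, while miR-199a-5p, which cannot be separated from miR-199b-5p, fell by 1.27 from 264 to 100 and from 180 to 137. Of all 15 feeder list members tested, 1 was higher and 2 lower, against 4.17% and 4.05% of all miRNAs tested, with a median of -0.37. On the deposited scale 3 were higher and 0 lower, against 7.03% and 1.07%, with a median of 0.01. The list took 1.41% of reads at day 0 and 2.69% at day 1 without Dox, and 1.98% and 2.67% with Dox. Most of that rise was the gain of miR-21a-5p given above, which did not pass after scaling. The blood and endothelium markers summed to between 817 and 871 RPM, with miR-451a of red cells at 0 in all 4 libraries. In that list miR-150-5p fell by 1.22, from 1185 to 794 RPM without Dox and from 1080 to 500 with Dox (limma adjusted p = 0.0108), 1 of 10 members. Muscle markers summed to at most 7 RPM. Endoderm markers summed to 801 then 613 RPM without Dox, 985 then 893 with Dox, and 0 of 7 endoderm list members passed. The neural markers miR-9-5p and miR-124-3p summed to 3631 then 5216 RPM without Dox, 3045 then 4082 with Dox, neither passing. The part of other cells in the day 1 changes was not tested.

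**Figure D4:**
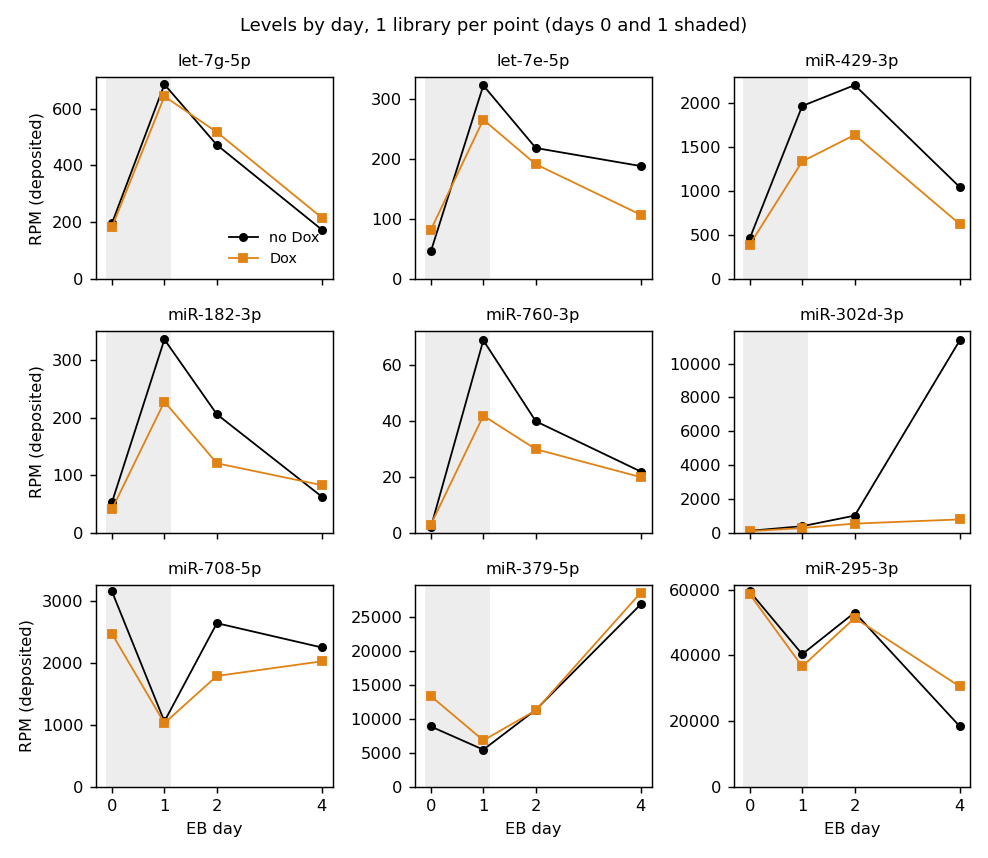
Deposited RPM at days 0, 1, 2 and 4 for 9 miRNAs, 1 library per point, without Dox (black circles) and with Dox (orange squares), each panel on its own axis from 0 and days 0 and 1 shaded. let-7g-5p, let-7e-5p, miR-182-3p and miR-760-3p are highest at day 1 in both treatments, miR-708-5p is lowest there, and miR-302d-3p rises far more by day 4 without Dox (11363 RPM).

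Day 2 shows which of these shifts went on. Between day 1 and day 2, 32 of 839 miRNAs passed (3.81%), 21 higher (2.50%) and 11 lower (1.31%). These contrasts share the day 1 libraries, so a low day 1 value enters both. Of the 69 miRNAs changed at day 1, miR-150-5p was the one that passed again in the same direction, falling by a further 1.65 (SE 0.35, limma adjusted p = 7.62e-04) to 211 and 219 RPM. miR-708-5p, miR-379-5p, miR-381-3p, miR-369-3p and miR-152-5p fell to day 1 and then rose from day 1 to day 2. miR-369-3p had the largest such rise among those above 100 RPM, from 500 to 2773 RPM without Dox and from 676 to 1870 with Dox (1.87, SE 0.29, limma adjusted p = 1.67e-07). This went past its day 0 level, with 357 and 273 reads at day 0 and 1169 and 879 at day 2, without and with Dox. Its day 1 fall was kept in only 3 of 17 alternatives. miR-381-3p went from 6587 to 17164 RPM and from 11267 to 18971, and miR-379-5p from 5458 to 11326 and from 6823 to 11246. None of the miRNAs that rose at day 1 passed at day 2. let-7g-5p had 472 and 517 RPM at day 2, let-7e-5p 218 and 191, and miR-429-3p 2197 and 1634, without and with Dox in each case.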

How the data were processed

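Total RNA was isolated with TRIzol and small RNA libraries were made with an NEBNext kit, per the labels' protocols. The submitters' processing notes name Bowtie and mm10 alone. How reads were counted, and on which miRNA annotation, is not stated by the sources used here. The authors deposited scores: whole numbers summing to between 999967 and 1000037 in the 4 libraries, as RPM rounded to whole numbers would give. 1 row without a miRNA name was left out. Reads are the smallest total per library for which each value is a whole number of reads within 0.5 RPM. In 2 of these libraries many other totals matched too (207 for day 0 and 185 for day 1, both without Dox), so intervals there are conditional on the smallest.

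Values were scaled by median of ratios over the 8 libraries (496 miRNAs above 0 in all). A miRNA was tested where 2 or more libraries held a value of at least 1 (839). limma 3.58.1 in R 4.3.3 was run on log2(value + 1), with trend and robust prior variance, treatment and day as terms over the 8 libraries (3 residual degrees of freedom), and Benjamini-Hochberg adjustment over the 839. Changes are on this log2(value + 1) scale, where those of low miRNAs come out too small. Prior degrees of freedom were infinite for all except 45 miRNAs, so most errors come from the trend. Whether cultures were separate is not stated in the labels, so p-values measure only the spread between these libraries, which may be technical. Ratio intervals are exact conditional binomial intervals at 95%. Both the method and the search for read totals were tested on simulated data. Reads and figures used Python 3.11.15.

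The 4 libraries, the 23 lists and the rule for naming miRNAs were chosen with earlier results of these data known. Named miRNAs are the 12 largest changes in each direction that passed, the 5 most abundant, the 5 largest gains and 5 largest losses in scaled value, the 2 most abundant of each list, and the 3 hairpins whose arms differed most. Others, including miRNAs described one by one because of their list, their locus or the day after, were chosen after their values were seen. Alternatives covered scaling, pseudocount, filters, the robust option, the libraries in the fit, the treatment term, limma-voom on implied reads and leaving out each library.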

Additional observations from a re-analysis of the deposited data

How the results depend on the processing

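Of the 69 miRNAs called, 44 were also called on the deposited scale, 47 with values scaled to the sum outside the miR-290 cluster, 64 with pseudocount 5, 59 with no filter, 53 with no treatment term and 50 with limma-voom; with a pseudocount of 0.5 or without the day 4 pair all 69 were. The total was 17 without the robust option (8 higher, 9 lower) and 0 with only the 4 libraries of days 0 and 1 (0 higher and 0 lower, with 163 at an unadjusted p under 0.05). Higher calls numbered 59 on the deposited scale, 20 without the day 2 pair and 18 by limma-voom, against 35. Lower calls numbered 9 on the deposited scale and 12 with scaling outside the miR-290 cluster, against 34. Leaving out 1 of the 4 libraries left between 0 and 40 calls, with 0 to 22 higher and 0 to 18 lower; 0 remained without the day 1 library without Dox (97 at an unadjusted p under 0.05). The cause was not tested, beyond the fewer libraries or genes that some alternatives hold. The 2-fold count of 50 became 22 (12 higher, 10 lower) with a mean of at least 50 RPM, and its split became 58 higher and 5 lower on the deposited scale. The test of the difference between treatments gave 0 calls under each of its alternatives. No called miRNA reversed. Among those not called, miR-292a-5p had a change of 0.34 on the deposited scale, 0.27 with scaling outside the miR-290 cluster, and -0.40 to 0.32 without 1 library; miR-466f-5p of 0.18 and 0.11 under those scalings; miR-183-5p of -0.034 to 0.19 and miR-331-5p of -1.10 to 0.36 without 1 library. Days were compared within treatment through the treatment term, without which 53 of the 69 were called. All conditions share a single replicate number, so no pairing of libraries beyond treatment could be used.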

Other observations

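Several miRNAs called higher have not yet been described. miR-465b-5p and miR-465c-5p, which cannot be told apart here, each had 1 read in each day 0 library, and 11 reads at day 1 with Dox. miR-465c-5p had 18 reads at day 1 without Dox, with a ratio of 12.7 (95% counting interval 2.01 to 531), and with Dox the interval included 1 (0.869 to 257). miR-881-3p, on the X chromosome (mm10, chrX:66801944-66802021, minus strand), had 7 then 67 RPM without Dox, 14 then 37 with Dox (limma adjusted p = 0.00805). miR-871-3p rose from 1 to 14 reads without Dox and from 0 to 3 with Dox, where no rise is bounded. These 4 miRNAs were singled out after their values were seen.

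Other miRNAs that passed outside the lists were miR-328-3p, with 29 then 231 RPM without Dox, 63 then 162 with Dox, and miR-598-3p, with 15 then 67 without Dox, 25 then 127 with Dox. miR-3057-5p, whose hairpin overlaps a coding exon of Apba3, had 0 then 11 reads without Dox, 1 then 6 with Dox. miR-187-3p had 24 then 58 RPM without Dox, 5 then 60 with Dox, and miR-298-5p had 371 then 898 RPM without Dox, 364 then 863 with Dox. miR-542-3p had 126 then 376 RPM without Dox, 82 then 226 with Dox. The near-identical miR-135a-5p and miR-135b-5p fell together after scaling. miR-135a-5p had 1561 then 1040 RPM without Dox, 1788 then 939 with Dox (limma adjusted p = 0.00376), and did not pass on the deposited scale (adjusted p = 0.0846).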
